A study of Mus musculus with 17 samples.

Results

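Mitochondrial ribosomal protein genes were taken as every gene whose symbol in the platform annotation begins with Mrpl, for a protein of the large ribosomal subunit, or Mrps, for one of the small subunit. The rule gave 74 genes, 46 Mrpl and 28 Mrps, of 12989 genes with a symbol, and these 74 genes are read by 111 of the 20873 probes that the annotation gives 1 symbol. The comparison was between antibody-secreting cells (ASCs) of young and of aged mice. ASCs were sorted from the marrow of the hind leg bones, and their RNA was amplified and hybridized to an Illumina mouse whole-genome bead array. The 9 young samples came from mice of 6 to 8 weeks and the 6 aged samples from mice of more than 17 months. Young samples 3 and 4 were each hybridized to a second array, and their arrays were averaged, so 17 arrays gave 15 samples. The labels call the cells B cells, and the sort gate included CD138 and left out cells with CD3, CD14 or IgD. Neither a strain, a genotype nor a treatment of the arrayed mice is given in the sources used here. Cells of several mice were pooled where numbers were low, but which samples are pools is not given. The paper counts 9 young mice, which equals the number of young samples, whereas its count of aged mice exceeds the 6 aged samples. If every mouse was arrayed, the pools lay among the aged samples. Pooling and age therefore cannot be told apart.

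Mitochondria hold their own ribosomes, which translate the few messages of the mitochondrial genome, all of them for subunits of the respiratory chain and of ATP synthase. The RNA of these ribosomes is made inside the organelle, whereas every one of their proteins is encoded in the nucleus, made in the cytosol and imported. Some of the proteins have a counterpart in the bacterial ribosome and others are found only in mitochondria. Plasma cells secrete large amounts of antibody, and their energy supply rests in part on respiration.

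The composition of the start sites of these genes was compared with that of all genes, and no like set of genes was compared. Start sites are printed for 3 of the genes whose probes are described below. RefSeq windows of 300 bases, from 250 before the transcription start to 50 after it (GRCm38.p6), were found for 65 of the 74 genes, in 71 windows. Capitals mark matches on either strand to CCGGAAG, the core read by ETS factors, to GCGCA and GCGC with any base between them, the palindrome of nuclear respiratory factor 1 (NRF1), or to AAGATGGCG, the motif of YY1, and the start is base 251. The Mrpl33 window is chr5:31613701-31614000 on the plus strand and has an ETS core at base 248. The Mrpl17 window is chr7:105811038-105811337 on the minus strand and has an ETS core at base 14 and an NRF1 match at base 202. The Mrpl12 window is chr11:120484387-120484686 on the plus strand and has an NRF1 match at base 170.
Mrpl33: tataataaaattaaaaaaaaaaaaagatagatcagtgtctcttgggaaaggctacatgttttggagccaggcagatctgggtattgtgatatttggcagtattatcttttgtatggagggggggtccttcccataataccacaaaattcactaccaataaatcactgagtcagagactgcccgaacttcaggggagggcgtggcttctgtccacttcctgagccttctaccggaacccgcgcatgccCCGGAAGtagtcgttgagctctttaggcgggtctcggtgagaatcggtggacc
Mrpl17: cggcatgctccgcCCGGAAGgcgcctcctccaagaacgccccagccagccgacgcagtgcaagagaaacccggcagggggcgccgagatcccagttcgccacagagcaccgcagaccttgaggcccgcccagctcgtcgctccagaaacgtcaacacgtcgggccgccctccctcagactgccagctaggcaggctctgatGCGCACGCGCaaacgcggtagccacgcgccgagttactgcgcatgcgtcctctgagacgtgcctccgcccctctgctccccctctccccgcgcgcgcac
Mrpl12: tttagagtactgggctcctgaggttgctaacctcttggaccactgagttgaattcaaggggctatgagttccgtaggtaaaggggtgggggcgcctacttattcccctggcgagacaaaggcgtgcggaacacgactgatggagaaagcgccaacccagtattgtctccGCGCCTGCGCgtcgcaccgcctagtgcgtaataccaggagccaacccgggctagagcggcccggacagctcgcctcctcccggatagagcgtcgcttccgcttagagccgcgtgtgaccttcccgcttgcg

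An ETS core was present in 35.2% of the 71 windows and in 8.86% of the 32851 windows of all genes. NRF1 matches stood in 16.9% of the members' windows against 4.6% of all windows, and the YY1 motif stood in 11.3% against 1.4%. The SP1 box GGGCGG was found in 52.1% against 35.7%, and TATAAA in 7.04% against 13.6%. With T as the base between its arms, the NRF1 palindrome was in 2.82% against 0.971%. The members' windows held a median of 21 CpG, counted on one strand, against 7 in all windows, and a median GC content of 58.7% against 52.7%. The ETS core was in 31.1% of the 45 windows of Mrpl genes and 42.3% of the 26 windows of Mrps genes, and the NRF1 match in 20% and 11.5%. A match is a run of letters and not a bound site. Of the 21 genes with an ETS core and a tested probe, 10 were higher and 11 lower in aged samples (median log2 difference −0.02), and of the 30 without one, 11 were higher and 19 lower (median −0.10). For the NRF1 match, 6 of 11 genes were higher (median 0.03), against 15 of 40 genes without it (median −0.08). For the YY1 motif, 1 of 5 genes was higher (median −0.17), against 20 of 46 without it (median −0.06).

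**Figure D1:**
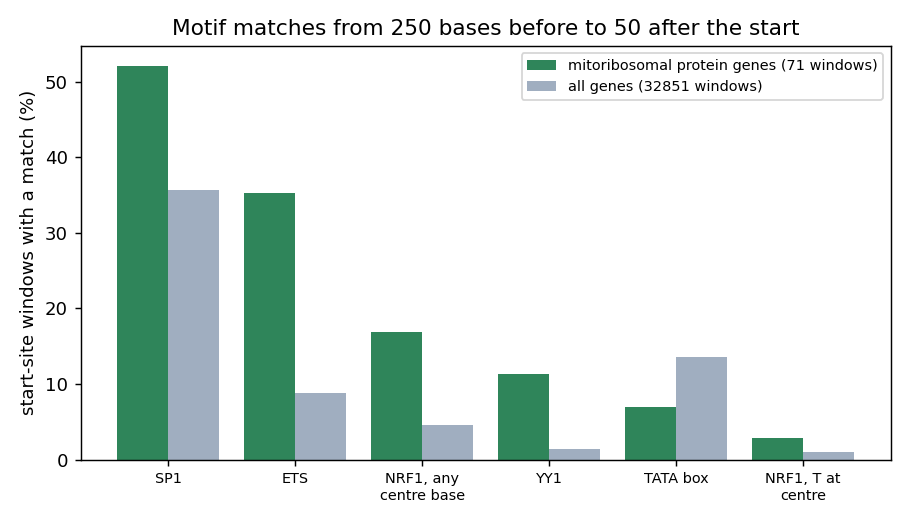
Share of start-site windows that hold a motif (y axis, percent from 0), for the 71 windows of mitochondrial ribosomal protein genes (green) and for 32851 windows of all genes (grey). The ETS core is in 35.2% and 8.86% of them, and only the TATA box is more frequent in all genes (13.6% against 7.04%).

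Signals of the array are brightness values, which were quantile normalized and put on a log2 scale, and a probe was tested where at least 7.5 of the 15 samples (that is, 8) gave a detection p-value under 0.05. Of the 111 probes 69 passed, 43 of Mrpl and 26 of Mrps genes, and they cover 58 of the 74 genes. The other 42 probes all failed on detection, and their aged and young means differed by between −0.23 and 0.16. The 16 genes without a tested probe were Mrpl4, Mrpl9, Mrpl11, Mrpl19, Mrpl34, Mrpl35, Mrpl43, Mrpl46 and Mrpl55 of the large subunit and Mrps2, Mrps6, Mrps11, Mrps14, Mrps16, Mrps25 and Mrps27 of the small one. A signal that stays within background gives no measure of the message, and probes that failed are described no further. In young samples between 47 and 89 of the 111 probes were detected (median 69), and in aged samples between 44 and 93 (median 66), so the ranges overlapped. Over all probes of the array, 8998 to 15864 were detected in young and 10401 to 17120 in aged samples. Both young maxima came from young sample 4, which had a repeat array. Among young samples with a single array the maxima were 75 of the 111 probes and 12945 of all probes. Overlap at the upper end of the ranges therefore rests on samples with a repeat array.

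What else the sorted cells held bears on any level in bulk RNA. Jchain, Xbp1 and Mzb1, which are genes of antibody secretion, were detected in all 15 samples. So were 4 of the 12 plasma cell marker probes, these 3 genes included, and 12 of the 14 neutrophil marker probes. The 3 probes of Sdc1, the gene of CD138, were above background in 1 to 3 of the 9 young samples and in 1 to 5 of the 6 aged ones, and were not tested. The summed signal of 12 plasma cell marker probes was 13.14 to 13.55 (log2) in young and 13.58 to 14.05 in aged samples. Summed over 10 probes of precursor B cell genes, such as Igll1 and Dntt, it was 12.02 to 13.07 in young and 11.49 to 11.77 in aged samples. Neither of these sums overlapped between the ages. All 7 tested plasma cell genes were higher and 5 of the 6 tested precursor genes were lower in aged samples, and 2 and 4 of them passed the adjusted threshold. Neutrophil marker sums (14 probes) overlapped, at 14.79 to 15.96 in young and 14.78 to 15.82 in aged samples. So did those of erythroid genes (10.85 to 12.19 and 10.76 to 11.56), of T and NK cell genes (10.99 to 11.92 and 11.02 to 11.49) and of basophil and mast cell genes (11.46 to 12.35 and 11.35 to 12.20). Lower in aged samples were 7 of 10 tested neutrophil genes, all 3 tested erythroid, 2 T and NK and 5 basophil and mast cell genes. T and NK genes that failed the detection filter went in different directions. Each Cd3e probe was detected in 1 of the 9 young samples and 5 of the 6 aged ones. Cd3d and Cd3g were detected in 4 and 6 young samples and in 1 aged sample each, and Nkg7 in 3 and 3. None passed the adjusted threshold. An unadjusted p under 0.05 in the limma comparison described below was reached by 1 higher and 1 lower neutrophil gene. It was also reached by 2 lower basophil and mast cell genes. Of all tested probes 14.1% reached it. The part of these cells in the values below was not tested, and in bulk samples fewer cells of a type cannot be told apart from less RNA per cell.

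The question put to the 58 genes was whether their messages differ with age, and no tested probe passed. The limma comparison took in all 11073 tested probes of the array and was two-sided, with Benjamini-Hochberg adjustment. None of the 69 mitochondrial ribosomal protein probes had an adjusted p under 0.05, where 153 of all tested probes, 1.38%, did (1.06% higher and 0.325% lower in aged samples). At an unadjusted p under 0.05, which allows more chance calls, 3 of the 69 probes passed, or 4.35%, against 14.1% of all tested probes. The 2 that were higher in aged samples read Mrpl40 and Mrpl17, and the 1 that was lower read Mrpl33. The share of all tested probes was 8.81% for higher and 5.27% for lower. The methods' t-test on the same values also gave no adjusted call among the 69 and 2 at the unadjusted threshold. No probe of the 69 had groups that did not overlap, against 0.659% of all tested probes.

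By direction alone 32 of the 69 probes were higher and 37 lower in aged samples, or 46.4% higher, against 48.2% of all tested probes. The median log2 difference was −0.05, beside −0.01 for all tested probes, and the range was −0.63 to 0.48. These sizes depend on the background correction: with neqc the differences were 1.03 for Mrpl40, 1.00 and 0.88 for the Mrpl13 probes, 0.87 for Mrpl38, 0.81 for Mrpl57, −0.86 for Mrpl42 and −0.81 for Mrpl33, in the same directions and again with no adjusted call. The middle of the 69 lay between −0.18 and 0.10 (quartiles), and of all tested probes between −0.17 and 0.19. Of the 17 probes that were detected in all 15 samples, 6 were higher and 11 lower (median −0.12). The 3770 tested probes of the array detected in all samples had a median of −0.02. All 6 aged samples lay above the young median for 3 of the 69 probes and below it for 6. The share of all tested probes with such a pattern was not counted, so these counts are no result about the members.

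**Figure D2:**
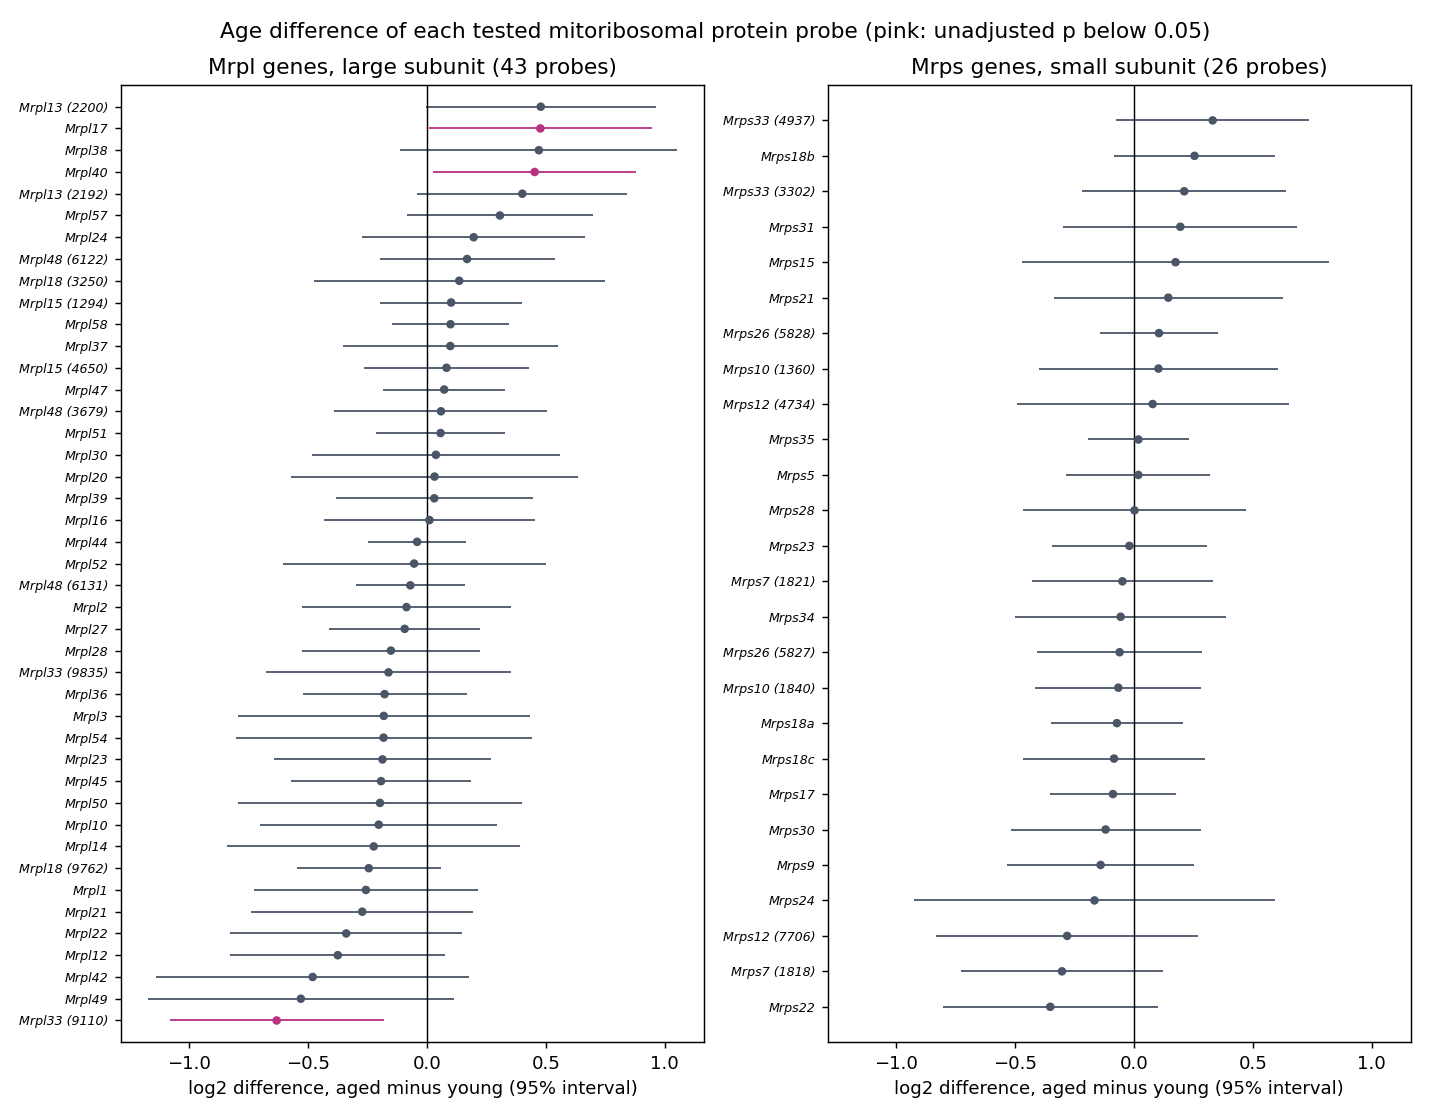
Log2 difference of aged minus young samples (x axis) for each of the 69 tested probes, as a point with its 95% interval, sorted within the large subunit (left, 43 probes) and the small subunit (right, 26 probes). Genes with several probes carry the last 4 digits of the probe number. The points run from −0.63 to 0.48, and the intervals of all but the 3 pink probes, of Mrpl33, Mrpl40 and Mrpl17, include 0.

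The precision set what could be seen. The standard error of the log2 difference had a median of 0.21 (0.10 to 0.36), and the median half-width of the 95% interval was 0.44. For 33 of the 69 probes the interval lay within 1.5-fold in either direction, and for 65 it lay within 2-fold. Only 3 intervals lay within 1.25-fold. The intervals that reached farthest ended at −1.17 for Mrpl49 and at 1.05 for Mrpl38. A difference of 1.25-fold was therefore not detectable for most of these genes, and the absence of a call does not show that young and aged samples were equal. All these bounds hold for signal without background correction and are not bounds on the message. For Mrpl40 and Mrpl13 ILMN_2982200 the intervals ended at 0.88 and 0.96. With neqc the log2 differences themselves were 1.03 and 1.00, beyond those ends. Spread between samples of one age had a median SD of 0.40 and went from 0.14 for Mrpl51 to 0.80 for Mrps24.

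Mrpl33, the mitochondrial counterpart of bacterial protein L33 of the large subunit, had the largest difference and the smallest p of the 69 probes with quantile normalization and all samples. Its p was not the smallest under every alternative: it was 0.135 unadjusted with 75th percentile scaling, where Mrpl40 had the smallest, and with a replicate block Mrpl49 had the smallest. Its brighter probe, ILMN_1229110, was detected in every sample. The young samples ran from 9.42 to 10.97 (median 10.53) and the aged samples from 9.21 to 10.003 (median 9.90). All 6 aged samples were below the young median, and 8 of the 9 young samples were above every aged sample. Only young sample 1, at 9.42, lay among the aged ones, the next young value being 10.25, and aged sample 4 was the lowest of all at 9.21. The means were 10.42 ± 0.42 (SD, n = 9) and 9.79 ± 0.29 (SD, n = 6), a log2 difference of −0.63 (SE 0.22, 95% interval −1.08 to −0.18), or 1.55-fold less in aged samples. In limma the unadjusted p was 0.00823 and the adjusted p was 0.167. The adjusted p was 0.0503 without young sample 1 (difference −0.76) and 0.344 without aged sample 4 (difference −0.52), so single samples moved it but none brought it under the threshold.

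The other Mrpl33 probe, ILMN_2629835, gave a smaller difference with more scatter. Young samples ran from 7.75 to 9.91 (median 8.88) and aged samples from 8.41 to 8.81 (median 8.54), and 2 young samples were below detection. Here too the 6 aged samples were all below the young median, but 3 young samples lay below every aged one and 5 above. The difference was −0.16 (SE 0.25, adjusted p = 0.83 in limma). Between the 2 probes the difference in age effect was −0.47 (SE 0.27, 95% interval −1.05 to 0.11), with an unadjusted p of 0.105 and an adjusted p of 0.719 over all same-gene pairs in limma, so the probes were not shown to differ.

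**Figure D3:**
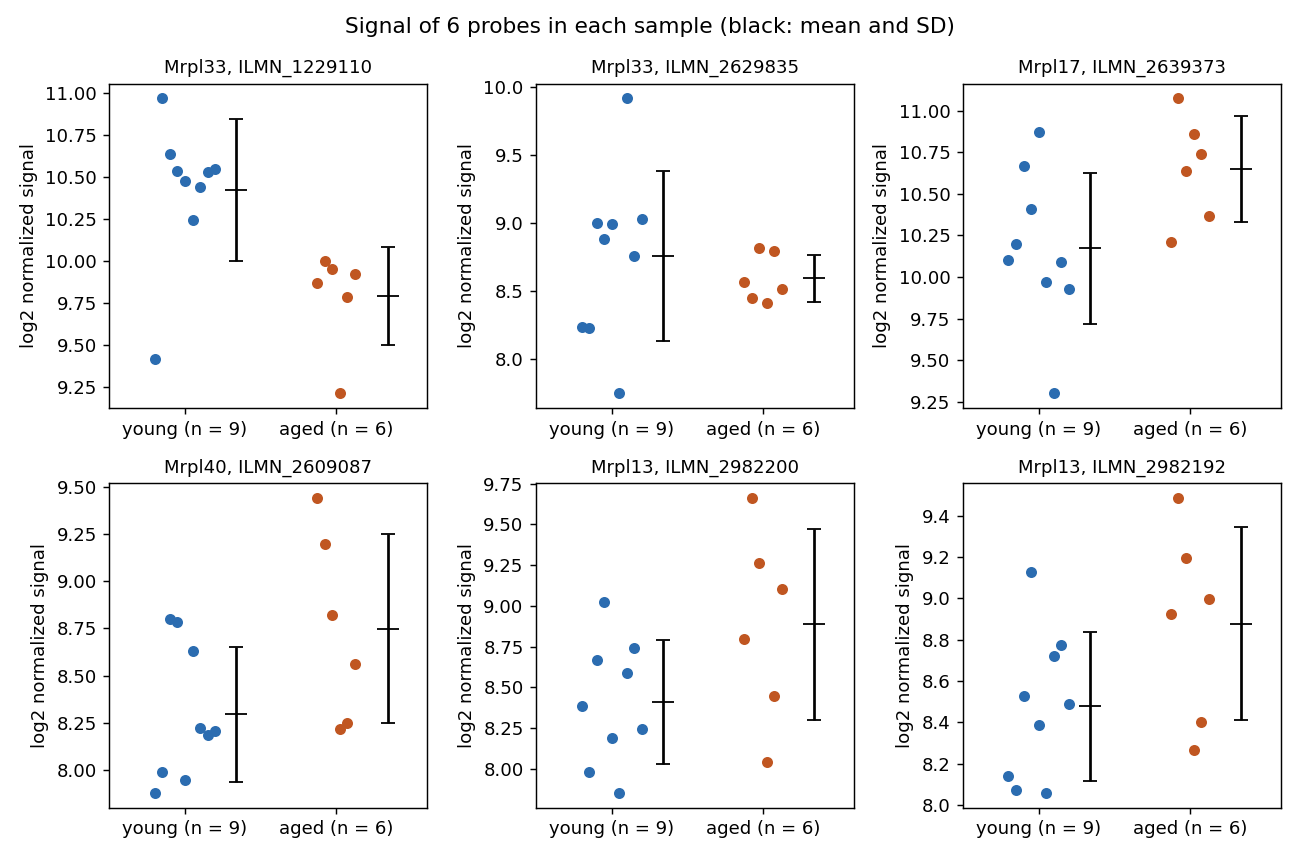
Log2 normalized signal (y axis) of 6 probes in each of 9 young (blue) and 6 aged (orange) samples, with the mean and SD of each group in black; each panel has its own scale. For Mrpl33 ILMN_1229110 only young sample 1, at 9.42, falls among the aged samples, while the groups overlap more in the other 5 panels.

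Mrpl17, whose bacterial counterpart L17 sits near the exit of the peptide tunnel, was higher in aged samples without passing the adjusted threshold. Its only probe was detected in all 15 samples. It read 9.30 to 10.87 (median 10.10) in young and 10.21 to 11.07 (median 10.69) in aged samples. The 6 aged samples were all above the young median, 6 young samples were below every aged one, and the remaining 3 young samples overlapped with them. The means were 10.17 ± 0.46 (SD, n = 9) and 10.65 ± 0.32 (SD, n = 6), a log2 difference of 0.48 (SE 0.22, unadjusted p = 0.0463, adjusted p = 0.344 in limma), or 1.39-fold. The unadjusted p rose to 0.0929 without young sample 7, the lowest, and to 0.108 without aged sample 2, the highest.

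Mrpl40, a large subunit protein found in mitochondria only, had the other unadjusted p under 0.05 on the higher side. Young samples read 7.88 to 8.80 (median 8.21) and aged samples 8.22 to 9.44 (median 8.69). All 6 aged samples were above the young median, and 5 young samples were below every aged one. The log2 difference was 0.45 (SE 0.21, unadjusted p = 0.0392, adjusted p = 0.324 in limma), or 1.37-fold. Detection was reached in only 4 of the 9 young samples and in 5 of the 6 aged ones, so a large part of these values borders on background. Without aged sample 1 the difference was 0.31 (unadjusted p = 0.127).

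Mrpl13, a conserved large subunit protein, was read by a pair of tested probes with differences on the higher side. ILMN_2982200 read 7.85 to 9.02 (median 8.39) in young and 8.04 to 9.66 (median 8.95) in aged samples, and ILMN_2982192 read 8.06 to 9.13 (median 8.49) and 8.26 to 9.49 (median 8.96). Aged samples 2, 3 and 6 were the highest aged samples on both probes, and aged sample 4 was the lowest aged one. The differences were 0.48 (SE 0.23, adjusted p = 0.36) and 0.40 (SE 0.21, adjusted p = 0.413, both in limma). On each probe, 6 of the 9 young samples and 5 of the 6 aged ones were above background. These 2 rows are no independent evidence for each other, since the probes read one message in the same samples.

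The remaining probes with the smallest p on the higher side were all unadjusted above 0.05. Mrpl38, which lies in the central protuberance of the large subunit, read 8.07 to 9.44 (median 8.55) in young and 8.35 to 10.29 (median 8.90) in aged samples, a difference of 0.47 (SE 0.28). The highest aged value was that of sample 4, and without it the difference was 0.24. Mrpl57, a protein found in mitochondria only, read 8.02 to 9.38 (median 8.19) in young and 8.29 to 9.04 (median 8.62) in aged samples, a difference of 0.31 (SE 0.19). Its 6 aged samples were all above the young median, and young sample 5, at 9.38, stood apart from the other young samples. Without young sample 5 the Mrpl57 difference was 0.44, with an unadjusted p of 0.0045 and an adjusted p of 0.133 in limma. The Mrpl57 probe was detected in only 4 of the 9 young samples, and in all 6 aged ones, so many young values border on background. Of the small subunit, Mrps33 (ILMN_1214937) gave 7.74 to 8.92 (median 8.17) in young and 8.11 to 9.196 (median 8.55) in aged samples, a difference of 0.33 (SE 0.20). This probe was detected in 4 of the 9 young samples and 4 of the 6 aged ones. The brighter Mrps33 probe, ILMN_3163302, was detected in every sample and differed by 0.21 (SE 0.21). Mrps18b, one of 3 mitochondrial proteins related to bacterial S18, gave 7.86 to 8.84 (median 8.40) and 8.38 to 9.15 (median 8.44), a difference of 0.26 (SE 0.16). Leaving out 1 aged sample brought the difference to 0.20 for Mrps33 ILMN_1214937 (sample 2) and to 0.14 for Mrps18b (sample 4). For Mrpl38, Mrpl57, Mrps33 ILMN_1214937 and Mrps18b the groups overlapped, and the adjusted p in limma was between 0.476 and 0.52.

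On the lower side 7 further probes had the smallest p, none under 0.05. Mrpl12, the counterpart of the bacterial stalk protein and in human cells also a partner of the mitochondrial RNA polymerase, read 8.35 to 9.49 (median 9.15) in young and 7.94 to 9.08 (median 8.83) in aged samples. Its 6 aged samples were all below the young median, and the difference was −0.38 (SE 0.22). Mrpl49, a mitochondria-specific protein, read 8.28 to 11 (median 9.49) and 8.57 to 9.35 (median 8.95), a difference of −0.53 (SE 0.31). Here the young samples covered a range several times that of the aged ones, and all aged samples lay inside it. Mrps22, a mitochondria-specific protein of the small subunit, read 7.95 to 9.81 (median 8.53) and 8.00 to 8.49 (median 8.32), a difference of −0.35 (SE 0.22), with young sample 2 the highest at 9.81. Mrpl42 gave 8.37 to 10.44 (median 9.73) and 7.87 to 9.98 (median 9.26), a difference of −0.48 (SE 0.32). For Mrpl22, whose bacterial counterpart lines the peptide tunnel, the values were 8.16 to 9.73 (median 8.75) and 8.04 to 8.85 (median 8.51), a difference of −0.34 (SE 0.23). Overlap was wide in both genes. The bright Mrps7 probe, for a conserved protein of the head of the small subunit, gave 10.23 to 11.14 (median 10.86) and 9.91 to 10.90 (median 10.55), a difference of −0.30 (SE 0.20), and Mrpl18 (ILMN_2659762) gave 8.21 to 8.80 (median 8.50) and 7.85 to 8.56 (median 8.31), a difference of −0.25 (SE 0.15). Single samples moved most of these values. The difference was −0.23 for Mrpl12 without aged sample 4, −0.23 for Mrpl42 and −0.16 for Mrpl18 without aged sample 2, and −0.18 for Mrps7 without aged sample 1. Without young sample 2 it was −0.34 for Mrpl49 and −0.21 for Mrps22. The adjusted p of these 7 in limma, with all samples, was between 0.466 and 0.561.

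The probes with the highest signal in each subunit were far from background and did not pass the test either. Mrpl21 read 10.25 to 11.80 (median 10.84) in young and 10.12 to 11.13 (median 10.72) in aged samples (difference −0.27, SE 0.22). Mrpl23, whose bacterial counterpart borders the tunnel exit, read 10.01 to 11.13 (median 10.84) and 10.08 to 11.03 (median 10.52, difference −0.19, SE 0.22). Mrpl20 ranged from 8.88 to 11.06 (median 10.71) and from 9.73 to 11.12 (median 10.35, difference 0.03, SE 0.29), and its low end was young sample 2. The groups overlapped in each of the 3, with a wider range in young samples for Mrpl21 and Mrpl20. Without young sample 2 the Mrpl21 difference was −0.16, and without aged sample 5 that of Mrpl23 was −0.10. Mrps34 of the small subunit, a mitochondria-specific protein, read 10.63 to 11.97 (median 11.37) and 10.73 to 11.83 (median 11.26, difference −0.06, SE 0.21), and Mrps18c, another relative of S18, read 10.40 to 11.28 (median 11.03) and 10.61 to 11.21 (median 10.88, difference −0.08, SE 0.18). For Mrps18c the 95% interval of −0.46 to 0.30 was narrower than 1.5-fold on both sides. For Mrps34 it was −0.50 to 0.39, also within 1.5-fold.

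The large and the small subunit were described side by side and not tested against each other. Of the 43 Mrpl probes 20 were higher and 23 lower in aged samples (median log2 difference −0.05), and of the 26 Mrps probes 12 were higher and 14 lower (median −0.03). The 3 probes with an unadjusted p under 0.05 were all of the large subunit. With the brightest tested probe of each gene alone, 17 of 37 Mrpl genes and 9 of 21 Mrps genes were higher (median −0.05 and −0.06). Mrps18a and Mrps30 carry a small subunit symbol but their proteins lie in the large subunit, and with these moved the medians were −0.07 for the large subunit and −0.01 for the small. Split by origin, 18 of 42 probes of proteins with a bacterial counterpart were higher (median −0.08), and 14 of 27 probes of the others (median 0.02).

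The mean over the 43 Mrpl probes was 8.79 to 9.07 in young samples (8.90 ± 0.09, SD, n = 9) and 8.64 to 9.09 in aged samples (8.87 ± 0.15, SD, n = 6). Over the 26 Mrps probes it was 8.87 to 9.06 in young (8.98 ± 0.06, SD, n = 9) and 8.76 to 9.15 in aged samples (8.97 ± 0.15, SD, n = 6). The aged samples spread more widely than the young in both subunits, with aged sample 4 the lowest in both, aged sample 3 the highest for the large and aged sample 2 for the small subunit. Levels of different probes cannot be set against each other, but the offset between the 2 means can be followed over samples. It was −0.15 to 0.14 in young and −0.23 to −0.00 in aged samples, and young sample 4 alone was above 0. Aged sample 4 gave the lowest value of all 15 samples for 17 of the 69 probes, and young sample 6 for 11. The highest value fell to young sample 5 for 11 probes and to young sample 2 and aged sample 2 for 10 each.

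**Figure D4:**
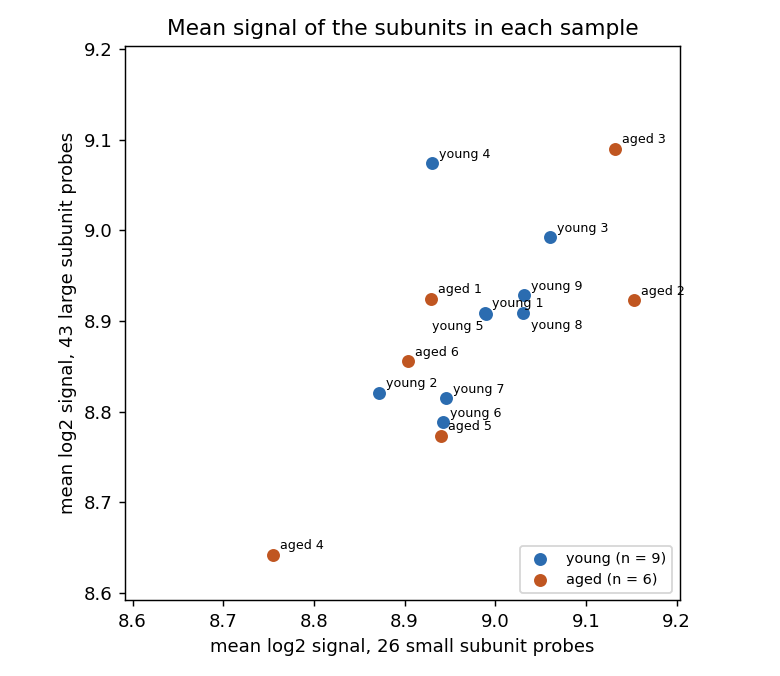
Mean log2 signal of the 43 large subunit probes (y axis) against that of the 26 small subunit probes (x axis), 1 point per sample, 9 young (blue) and 6 aged (orange). The young samples lie inside the range of the aged samples on both axes, aged sample 4 is lowest on both, and only for young sample 4 is the large subunit mean minus the small above 0 (0.14).

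From sample to sample, the correlation among these genes was near that among all tested probes. After each age's mean was taken out, the correlation between the brightest probes of 2 different member genes over the 15 samples had a median r of 0.0527 over 1653 pairs (quartiles −0.168 and 0.249). Over all 61300128 pairs of tested probes it was 0.0035 (quartiles −0.223 and 0.232). The share of pairs with r over 0.5 was 5.99% and 5.92%. Within the large subunit the median was 0.0694 (666 pairs), within the small subunit −0.00187 (210 pairs), and between them 0.0425 (777 pairs). These correlations are descriptions over samples that share amplification and array noise. The 2 arrays of young sample 3 differed by a median of 0.25 over the 69 probes, and the 2 arrays of young sample 4 by 0.37, whereas arrays of different young samples differed by 0.24 to 0.65 (median 0.41, 36 pairs). For young sample 4, 12 of these 36 pairs differed by less than its own repeat arrays did. The farthest apart were Mrpl2 in young sample 3, by 1.30, and Mrpl22 in young sample 4, by 1.08.

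Probes of one gene offer a check of the measurement within a sample. Of the 74 genes 49 had 1 annotated probe and 25 had several, and 4 had 4 probes. In 16 of the 25 some probes were tested and others failed detection, and in 3 none was tested. Only 10 genes had at least 2 tested probes, and these made 11 pairs with the brightest probe. None of the 11 pairs differed in age effect at an adjusted p under 0.05 in limma, and none at an unadjusted p under 0.05. Over the 2349 same-gene pairs of the array 0% and 8.17% did.

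How closely paired probes followed each other differed between genes. The SD of the difference between 2 probes, as a share of what 2 unrelated probes with the same scatter would give, was 25.8% for Mrpl13, 30.6% for Mrpl48 (ILMN_1216122 and ILMN_2663679), 35.6% for Mrpl15 and 58.7% for Mrps33. It lay between 86.5% and 106% for the other 7 pairs, which means that these probes shared little or none of their scatter. The median was 96.1% for the 11 pairs and 89.2% for all 2349. Mrpl33 belonged to the second kind at 86.5%. So did Mrps12, a conserved protein of the decoding site, whose probe ILMN_2777706 differed by −0.28 (SE 0.26) between the ages while ILMN_1254734 differed by 0.08 (SE 0.27).

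Mrpl48 showed both kinds within one gene. ILMN_1216122 read 7.99 to 9.15 in young and 7.98 to 9.01 in aged samples, and ILMN_2663679 read 7.95 to 9.28 and 7.73 to 9.25. Young sample 5 was the highest and aged sample 1 the next on both. The third tested probe, ILMN_1236131, read 8.09 to 8.77 and 8.02 to 8.44, and its pair with ILMN_1216122 stood at 106%. Age differences of the 3 probes were 0.17, 0.06 and −0.07. For Mrps7 the second probe differed by −0.05 (SE 0.18), and for Mrpl18 the second probe by 0.14 (SE 0.29). Which transcripts each probe reads was not analysed here.

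**Figure D5:**
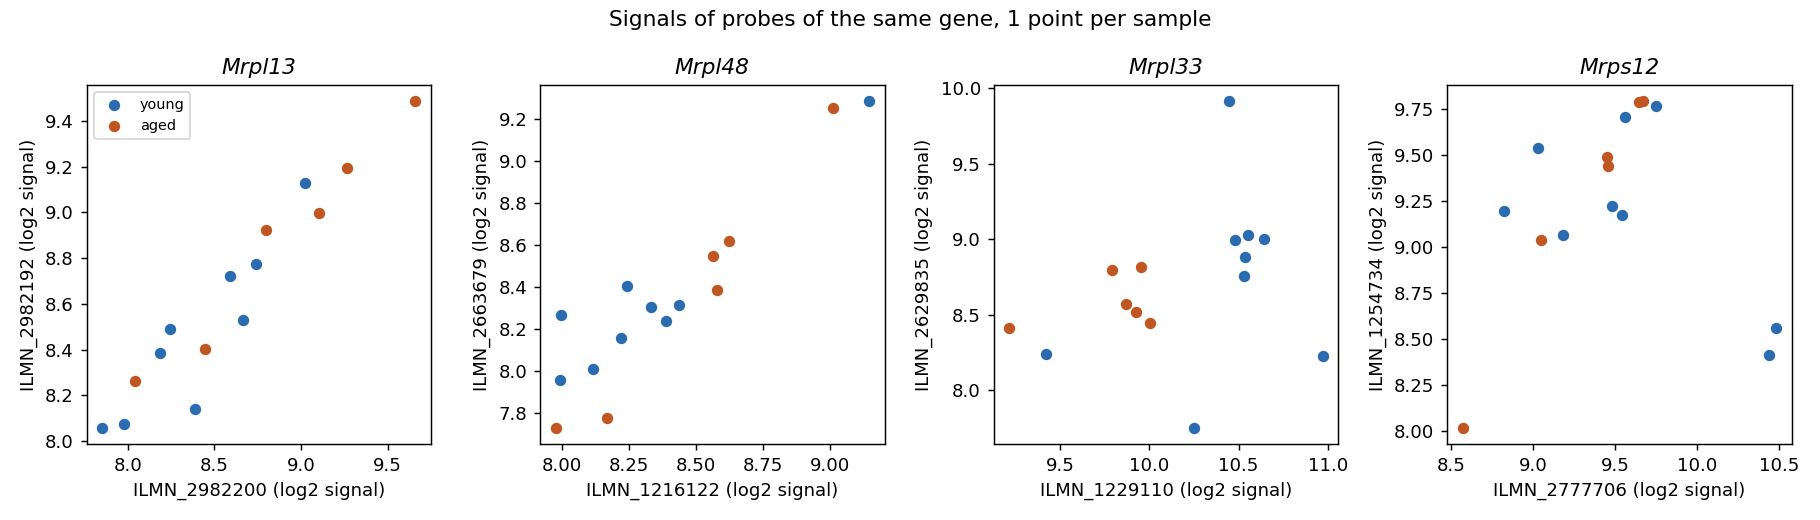
Log2 signal of 2 probes of the same gene against each other, 1 point per sample (9 young blue, 6 aged orange), for Mrpl13, Mrpl48, Mrpl33 and Mrps12; axes differ between panels. Points follow a line for Mrpl13 and Mrpl48, whose SD of the difference was 25.8% and 30.6% of that of unrelated probes, and scatter for Mrpl33 (86.5%) and Mrps12 (98.5%).

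Over the brightest tested probe of each gene, none of the other genes of mitochondrial translation listed here had an unadjusted p under 0.05 in limma, where 14.1% of all tested probes did. Of 5 genes of translation factors, such as the elongation factor Tufm and the initiation factor Mtif2, 3 were higher and 2 lower (median log2 difference 0.04). The farthest was Mtif3, an initiation factor, at −0.45 (SE 0.22, unadjusted p = 0.053 in limma), which was above background in 7 of the 9 young samples and in 2 of the 6 aged ones. Of 11 genes of mitoribosome assembly and ribosomal RNA modification 4 were higher and 7 lower (median −0.01), between Nsun4, an RNA methyltransferase, at −0.52 (SE 0.28) and Mrm1, which methylates ribosomal RNA, at 0.36 (SE 0.26). The 3 tested genes of mitoribosomal proteins with other names, Dap3, Chchd1 and Ptcd3, were at −0.01, −0.20 and −0.29. Of 6 genes of mitochondrial transcription and RNA stability 3 were higher and 3 lower (median −0.03), among them Tfam, which packages mitochondrial DNA and helps to start its transcription, at −0.25 (SE 0.24) and Lrpprc at −0.62 (SE 0.35). The summed signals of these lists overlapped between the ages, for instance 12.44 to 12.61 in young and 12.33 to 12.63 in aged samples for the translation factors.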

How the data were processed

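For every array the authors deposited unnormalized intensities (mean probe signals) and a detection p-value per probe. A second deposited set holds the authors' quantile normalized intensities of 26509 probes, on a linear scale, and the platform annotation used here covers only these; it gives 20873 of them 1 gene symbol, and other probes of these genes were not analysed here. RNA was amplified before labelling.

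Here limma 3.58.1 (R 4.3.3) was used for quantile normalization, and log2 values of repeat arrays were averaged. Tests (lmFit and eBayes with an intensity trend) covered the 11073 probes detected in enough samples, as the report states, that also varied by 1.2-fold or more. P-values measure only the spread between these samples, whose number limits the precision. Same-gene probes were compared through their difference within each sample. The procedure was tested on simulated data.

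The members and lists were chosen with earlier results of these data known. Probes are named for the 8 smallest p in either direction, the 3 highest signals of a subunit or the 6 smallest p among pairs, with Mrpl33 and Mrpl17. Mrpl2, Mrpl15, Mrpl44, Mrpl51, Mrps24, Mrps33 ILMN_3163302, Mrps35 and genes of other lists were picked after their values were seen. Alternatives covered scaling, background correction, filters, repeat arrays, a replicate block, the methods' t-test and leaving out samples.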

Additional observations from a re-analysis of the deposited data

Results flagged for a closer look

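Among 64 groups of values looked at, 7 held a highest or lowest sample that stood apart from the others of its age by a gap test, which flags about 1 group in 20 by chance. For Mrpl33 (ILMN_1229110) young sample 1 was low at 9.42, with the next young value at 10.25, and aged sample 4 was low at 9.21, with the next aged value at 9.79. Young sample 5 was high for Mrpl57 at 9.38 (next 8.39), for Mrpl48 ILMN_1216122 at 9.15 (next 8.44) and for Mrpl48 ILMN_2663679 at 9.28 (next 8.40), and the last 2 are probes of one gene. Young sample 2 was low for Mrpl20 at 8.88, with the next young value at 10.01. The offset between the large and small subunit means was high in young sample 4 at 0.14, where the next young sample was at −0.05.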

How the results depend on the processing

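No mitochondrial ribosomal protein probe passed the adjusted threshold under any alternative. No same-gene pair did under the alternatives looked at for pairs. For pairs the methods' t-test, the fit without an intensity trend and leaving out young sample 2 and aged sample 2 together were not looked at. The smallest adjusted p of a probe in limma was 0.0503 (Mrpl33 without young sample 1), and 0.0835 under a stricter detection filter, which kept 15 of the probes. That filter asked for a detection p under 0.01 in every young or in every aged sample. A probe could pass it through only the age where its signal was high, so results under that filter are no neutral check. Mrpl33 (ILMN_1229110), Mrpl17 and Mrpl40 kept their direction throughout. The count of probes higher at an unadjusted p under 0.05, 2 as reported, was 4 with 75th percentile scaling, 3 in the deposited normalized values, 1 with background correction by neqc, with the stricter filter and with the methods' t-test, and 0 with the first array only, with a replicate block and without young sample 2 and aged sample 2 (chosen after seeing the data, as they correlated least with the others). Leaving out 1 sample gave 0 to 4. The count of lower probes, 1 as reported, was 0 with 75th percentile scaling, 3 with the replicate block and 2 without those 2 samples, and 1 to 2 on leaving out 1 sample. The stricter filter moved the median difference of the large subunit to −0.19. Scaling to the 75th percentile raised the share of higher probes among all with an unadjusted p under 0.05 from 62.6% to 80.1%, and put 36 of the 69 probes higher and 33 lower.

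Single probes near 0 changed sign. With 75th percentile scaling Mrps34 was at 0.14 and Mrps18c at 0.095. Mrpl20 was at −0.016 with the first array only, at −0.022 with the replicate block and at −0.30 without young sample 2 and aged sample 2. Without those 2 samples Mrpl18 ILMN_2823250 was at −0.029 and Mrps12 ILMN_1254734 at −0.053. With the replicate block Mrpl33 ILMN_2629835 was at 0.077 and Mrps7 ILMN_2981821 at 0.079. Leaving out 1 sample gave ranges of −0.16 to 0.056 for Mrps34, −0.16 to 0.17 for Mrpl20, −0.0074 to 0.35 for Mrpl18 ILMN_2823250, −0.027 to 0.33 for Mrps12 ILMN_1254734, −0.18 to 0.061 for Mrps7 ILMN_2981821 and −0.12 to 0.19 for Mrpl48 ILMN_2663679. The other 682 values of single probes under an alternative kept their direction and their side of the adjusted threshold; at the unadjusted one several changed side, among them Mrpl33 (p = 0.135 with 75th percentile scaling) and Mrpl49 (p = 0.0148 with the replicate block). The cause of the changes was not tested.

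Calls over all probes, 153 as reported, were 89 with 75th percentile scaling, 55 with the replicate block, 45 without a filter, 278 with the stricter filter, 99 with the methods' t-test, 434 without young sample 2 and aged sample 2, and 40 to 317 on leaving out 1 sample. The sample titles do not say what the 6 replicate numbers that both ages share stand for. Deviations of same-numbered samples correlated at −0.0961 to 0.232, and 2 of 6 correlated best with their own number. Whether the numbers pair the samples cannot be decided from these values.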
